A study of Mus musculus with 8 samples.

Results

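Genes of the SOX, FOX, GATA, HOX, KLF, MEIS, ETS, NR2F and TBX families, together with the vascular and blood regulators Erg, Fli1, Tal1, Hhex, Maf, Lmo2 and Zbtb46, were followed in liver macrophage preparations from animals fed a western diet (WD, 4 libraries) or a normal diet (ND, 4 libraries). Members were taken by a rule on gene symbols that uses no values, but the families were chosen with earlier results of these data known. The source was a table that the authors had already limited to genes with a p-value below 0.05 and a fold change of more than 2. The rule found 41 members among the 2386 listed genes, of which 38 were protein-coding and 3 were non-coding (Foxd2os, Hoxb3os and Hoxb5os). All animals were of the C57BL/6 strain, a common inbred mouse line, and no genetic change is named for either group. The composition and length of the diets, the ages of the mice and the way macrophages were isolated are each not given in the sources used here. In the table the groups are written WDV and NDV; the V is not explained, and that these are the diet groups is an assumption. Each gene has a single fold change, WD over ND, for the whole comparison, so no value of a single library is shown and every error is the authors' standard error (SE).

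Transcription factors of these families bind DNA through a shared domain type within each family and set which genes a cell lineage uses. ERG, the SOXF factors (SOX7, SOX17 and SOX18), TAL1 and GATA4 are known in mouse for building and maintaining endothelium, including the sinusoidal endothelium that lines liver capillaries beside resident macrophages. HOX genes lie in clusters and mark position along the body axis, and MEIS proteins bind DNA together with HOX proteins. NR2F2 is a determinant of venous identity, whereas T-bet, the product of Tbx21, directs interferon-producing T cells and natural killer cells.

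Nearly the whole set was lower under western diet. By the authors' deposited table, 37 of the 41 members fell at an adjusted p below 0.05, 1 member rose (Tbx21), and 3 did not pass (Foxd2, Tbx20 and Hoxc6). Of all listed genes per the authors' deposited table, 61.4% fell and 22% rose by the same limit. Of the 17531 genes that the authors tested, as recovered from their adjusted p-values, 8.35% are listed as lower and 3% as higher. The median log2 fold change of the members was -2.54 per the authors' deposited table, against -1.53 for all other listed genes. The latter include 705 genes with a positive fold change. Over genes called lower alone, the medians were -2.58 for members and -2.09 for all other listed genes. A 95% interval wholly beyond a 2-fold fall was found for 25 members (61%), and for 39.8% of all listed genes, rising genes included. Among genes called lower it was found for 25 of 37 members and for 949 of all 1464 listed genes, a similar share. These intervals were computed from the SE per the authors' deposited table. Log2 fold changes below -3 were held by 13 members, or 31.7%, against 13.6% of all other listed genes, rising genes included, per the authors' deposited table. These 13 include Hoxc6, which did not pass, and Hoxb5os, with mean normalized counts of 1.10 and 2.28. Of 153 coding genes of these families in the annotation, 38 (24.8%) were listed and 34 (22.2%) fell, against 8.57% listed and 5.86% lower among all 21951 annotated coding genes. How many of either number the authors tested is unknown, and no set test was made on these shares.

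**Figure D1:**
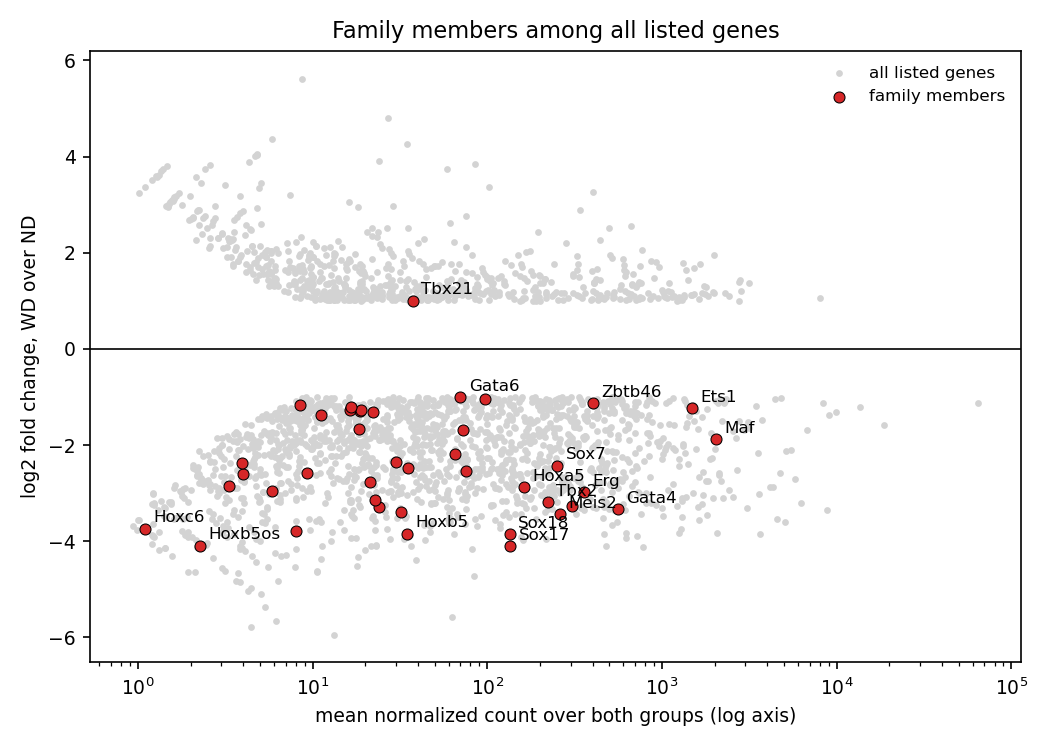
Mean normalized count over both groups (horizontal, log axis) against log2 fold change, WD over ND (vertical), for all 2386 listed genes in grey and the 41 family members in red. Of the members, Tbx21 alone lies above 0, and the empty band between -1 and 1 is the authors' limit on fold change.

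Markers of another cell type moved in the same direction. The marker lists were chosen with earlier results of these data known, so their counts are description and not independent support. All 20 markers of sinusoidal endothelium fell per the authors' deposited table, with a median log2 fold change of -3.16 and a range from -4.12 to -1.38. Of the 37 members that fell, 29 had fold changes within that range and 8 fell by less than every marker. Among 20 markers of Kupffer cells (the resident liver macrophages) and macrophages, Fcgr1, an activating Fc receptor gene, was the single listed gene, at 1.38 ± 0.13 per the authors' deposited table. Because the table holds only changed genes, the macrophage label could not be checked against the level of its markers. In such bulk libraries, fewer cells of a type and less RNA per cell cannot be told apart, and the part of endothelial content in the members' changes was not tested.

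**Figure D2:**
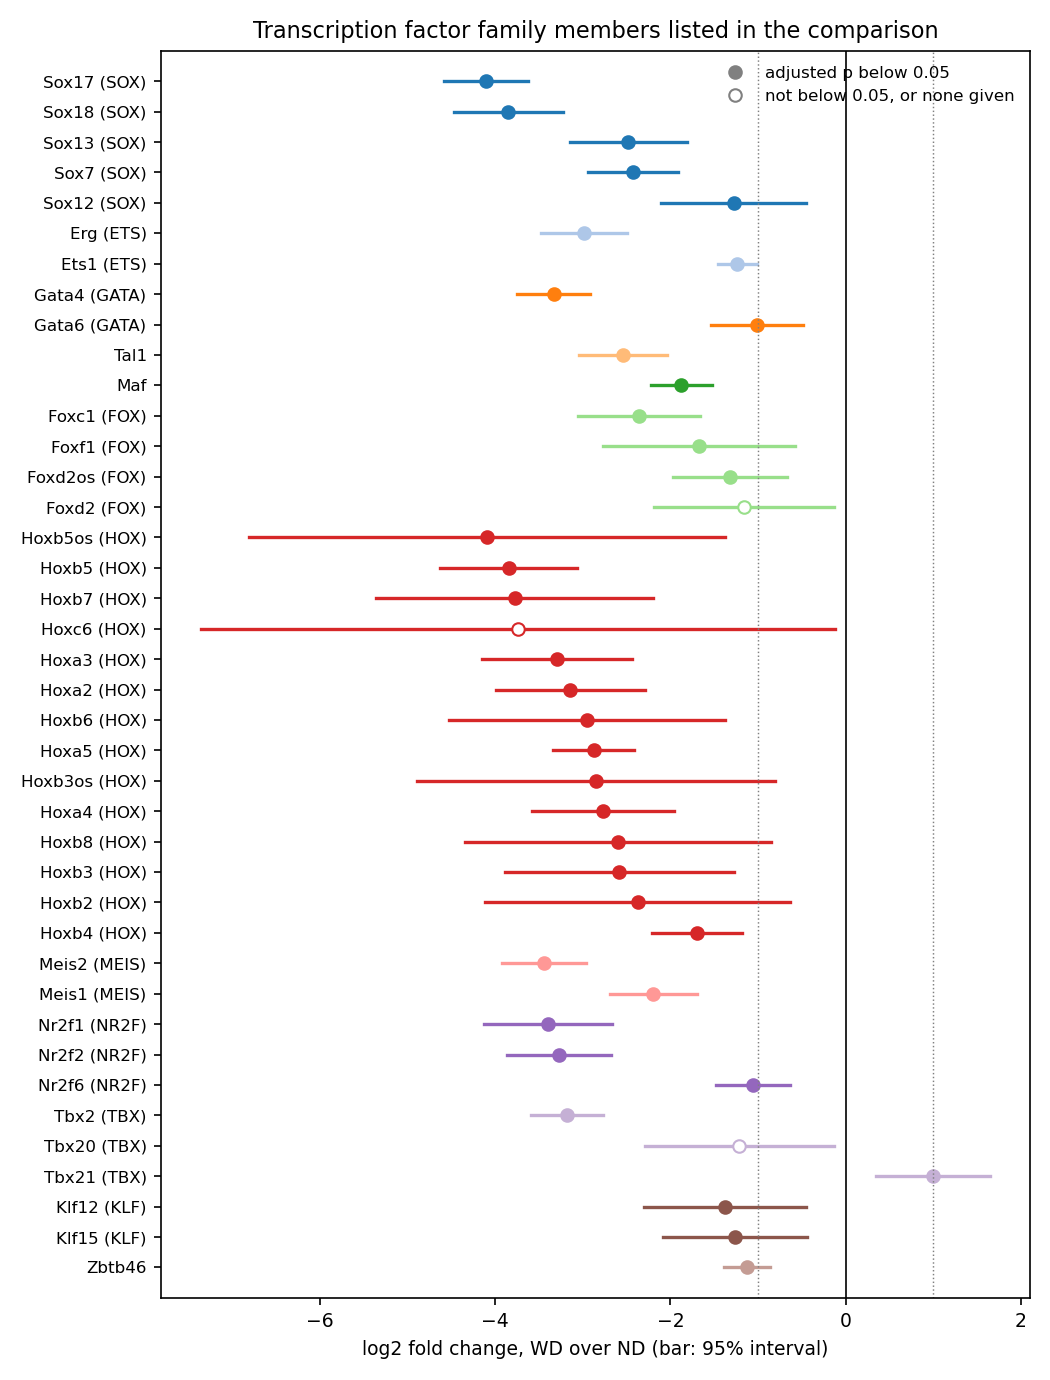
Log2 fold change of 40 of the 41 members, WD over ND (horizontal), with its 95% interval as a bar and family beside the name; filled points have an adjusted p below 0.05, open points do not or have none, and dotted lines mark a 2-fold change. The intervals of Sox17, Sox18 and Hoxb5 lie wholly below -3, and the widest bars belong to the low-count HOX transcripts.

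All 5 listed SOX genes fell, and the SOXF genes Sox17 and Sox18 had the lowest fold changes of these. Sox17, which is needed for arterial identity (chromosome 1, 4490931 to 4497354, mm10), fell 17.2-fold per the authors' deposited table (log2 -4.11 ± 0.25, adjusted p 1.72e-59) and held the 10th smallest p of all listed genes. Its mean normalized count over both groups was 135 per the authors' deposited table. That mean and fold change together imply about 14.9 counts in WD and 256 in ND libraries, if the mean is the average over 4 libraries per group and the fold change is the ratio of the group means; implied counts below are computed in the same way and have no error of their own. Sox18, a regulator of lymphatic and blood vessel formation (chromosome 2, 181669836 to 181671640), fell 14.4-fold per the authors' deposited table (log2 -3.85 ± 0.32, adjusted p 9.40e-32), with implied counts of 17.4 in WD and 252 in ND. Sox7, the remaining SOXF gene (chromosome 14, 63943673 to 63950732), had the smaller fold change of -2.43 ± 0.26 per the authors' deposited table (adjusted p 1.28e-18) and implied counts of 78.9 in WD and 424 in ND. Its 95% interval, -2.94 to -1.91, did not overlap those of Sox17 (-4.59 to -3.63) and Sox18 (-4.48 to -3.23), whereas those of Sox17 and Sox18 overlapped each other; the differences themselves were not tested.

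Outside SOXF, Sox13, a SOXD gene (chromosome 1, 133382303 to 133424377), fell by 2.48 ± 0.34 on the log2 scale per the authors' deposited table (adjusted p 7.07e-12). The SOXC gene Sox12 (chromosome 2, 152393611 to 152398063) was at -1.28 ± 0.42 per the authors' deposited table (adjusted p 0.0112), with a mean normalized count of 19.0. Of 19 annotated coding Sox genes these 5 were listed and all 5 fell. The other 14, among them Sox4 and Sox9, were not in the table, which does not say whether they were unchanged, changed by less than 2-fold or not measured.

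Among ETS genes, Erg and Ets1 both fell. Erg, which maintains endothelial junctions and quiescence (chromosome 16, 95359169 to 95586593), fell 7.92-fold per the authors' deposited table (log2 -2.99 ± 0.25, adjusted p 1.16e-30), with implied counts of 80.6 in WD and 639 in ND. Ets1, which lymphocytes use as well as endothelium (chromosome 9, 32636221 to 32757820), fell 2.36-fold per the authors' deposited table (log2 -1.24 ± 0.11, adjusted p 1.59e-25). Its implied counts were 884 in WD and 2085 in ND. The intervals of Erg (-3.48 to -2.49) and Ets1 (-1.46 to -1.01) did not overlap, though their difference was not tested. Ets2 and Fli1, the closest relatives of Ets1 and Erg, were not in the table.

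Of the GATA genes, Gata4 and Gata6 fell. Gata4, which directs the sinusoidal specialization of liver endothelium in mouse and is also used by stellate cells (chromosome 14, 63198922 to 63271692), fell 10.1-fold per the authors' deposited table (log2 -3.33 ± 0.21, adjusted p 9.04e-53). Its implied counts were 101 in WD and 1020 in ND, and its p was the 22nd smallest of all listed genes. Gata6, a close paralog (chromosome 18, 11052064 to 11085635), fell by 1.01 ± 0.27 on the log2 scale per the authors' deposited table (adjusted p 0.00118), which places it just inside the authors' limit on fold change. The intervals of Gata4 (-3.75 to -2.92) and Gata6 (-1.54 to -0.48) did not overlap. Gata1, Gata2, Gata3 and Gata5 were not in the table.

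Tal1, whose product works with GATA factors in blood and endothelial progenitors (chromosome 4, 115056426 to 115071755), fell by 2.54 ± 0.26 on the log2 scale per the authors' deposited table (adjusted p 2.18e-21). Lmo2, a partner of TAL1, and Hhex, an early regulator of liver and vessels, were not in the table. Maf, which both macrophages and sinusoidal endothelium use (chromosome 8, 115682942 to 115707794), fell 3.66-fold per the authors' deposited table (log2 -1.87 ± 0.18, adjusted p 7.98e-25). It had the highest mean normalized count of any member, 2036 per the authors' deposited table, and implied counts of 873 in WD and 3198 in ND.

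Of 44 annotated coding forkhead genes, 3 (6.82%) were listed and 2 (4.55%) fell, near the 8.57% and 5.86% of all annotated coding genes. Foxc1, a regulator of vascular and mesenchymal development (chromosome 13, 31806633 to 31812476), fell by 2.36 ± 0.35 on the log2 scale per the authors' deposited table (adjusted p 4.97e-10). Foxf1, a mesenchymal gene that liver stellate cells use in mouse (chromosome 8, 121084386 to 121088144), was at -1.67 ± 0.56 per the authors' deposited table (adjusted p 0.0124). Foxd2os, a non-coding RNA gene beside Foxd2, fell by 1.32 ± 0.33 on the log2 scale (adjusted p 0.000569), whereas Foxd2 itself stood at -1.16 ± 0.52 without passing (adjusted p 0.0798), both per the authors' deposited table. The other 41 of 44 annotated coding Fox genes, including Foxo1, Foxp1 and the hepatocyte genes Foxa1 to Foxa3, were not listed.

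HOX genes formed the largest family of the set, and every listed one had a negative fold change. Of 15 HOX members, 14 fell and Hoxc6 had no adjusted p per the authors' deposited table. Of the annotated coding genes the table held 7 of 10 in the Hoxb cluster, 1 of 9 in the Hoxc cluster and 0 of 9 in the Hoxd cluster. Listed genes were neighbours: Hoxa2 to Hoxa5 on chromosome 6 and Hoxb2 to Hoxb8 on chromosome 11 were listed without a gap. In the Hoxb cluster, genes toward the posterior end from Hoxb9 on were not listed, and neither was Hoxb1.

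In the Hoxa cluster, Hoxa5 (chromosome 6, 52201754 to 52204587) had the highest mean count per kilobase of exon among HOX members (85.8) and fell 7.33-fold per the authors' deposited table (log2 -2.87 ± 0.24, adjusted p 6.48e-32), with implied counts of 38.7 in WD and 284 in ND. Hoxa3 at -3.29 ± 0.44, Hoxa2 at -3.14 ± 0.43 and Hoxa4 at -2.76 ± 0.41 were close to it per the authors' deposited table. The 95% intervals of these neighbours overlapped that of Hoxa5.

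In the Hoxb cluster, Hoxb5 (chromosome 11, 96303336 to 96306121) fell 14.4-fold per the authors' deposited table (log2 -3.84 ± 0.40, adjusted p 2.48e-20), with implied counts of 4.54 in WD and 65.1 in ND. Hoxb4, with the highest mean count per kilobase of exon in this cluster (28.4), fell by 1.70 ± 0.26 on the log2 scale per the authors' deposited table (adjusted p 1.94e-09), and its interval (-2.21 to -1.18) did not overlap that of Hoxb5 (-4.62 to -3.06). Hoxb2, Hoxb3, Hoxb6, Hoxb7 and Hoxb8 had mean normalized counts from 3.96 to 9.24 and log2 fold changes from -3.78 to -2.37 per the authors' deposited table, with SEs of 0.66 to 0.89. The largest fold change of the HOX family, that of the antisense gene Hoxb5os at -4.09, had an SE of 1.39 per the authors' deposited table and a mean count of 2.28. Hoxc6 had a mean normalized count of 1.10 per the authors' deposited table (log2 -3.74 ± 1.85, p 0.0430). Of 91 pairs among the 14 called HOX members, 82 had overlapping 95% intervals, so most of the order within the family was not resolved.

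**Figure D3:**
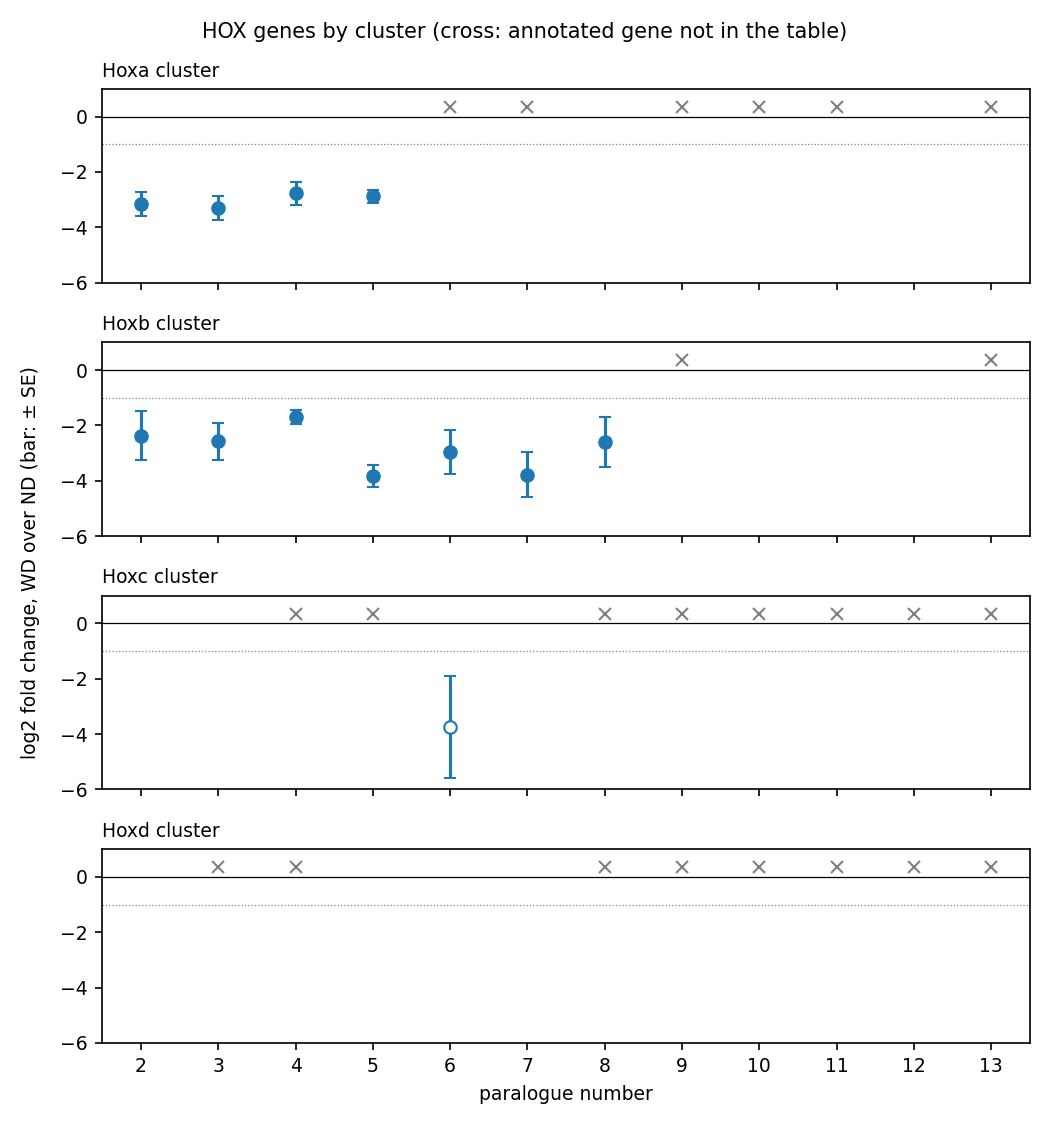
Log2 fold change, WD over ND, of annotated coding HOX genes by paralogue number, from 2 on, in the 4 clusters, with the SE as a bar. Filled points have an adjusted p below 0.05, the open point is Hoxc6, and crosses mark annotated genes that are not in the table; the listed genes run from Hoxa2 to Hoxa5 and from Hoxb2 to Hoxb8.

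Transcripts outside the rule within the same clusters had the same sign. Within 20 kb of the Hoxa cluster 7 other genes were listed, of which 5 fell and none was higher per the authors' deposited table. They included Hoxaas2 at -2.76 ± 0.91 and Hoxaas3 at -1.39 ± 0.54 per the authors' deposited table. Whether the libraries kept strand is not given in the sources used here, and exons of 9 of the 15 HOX members overlap another annotated gene. Hoxb3 and Hoxb3os share 2250 exon bases on opposite strands, which is 52.9% of the exon bases of Hoxb3 and 53.6% of those of Hoxb3os, and without strand reads from that stretch cannot be told apart. Hoxb3os stood at -2.85 ± 1.04, against -2.58 ± 0.66 for Hoxb3, per the authors' deposited table. In all, 16 of the 41 members share exon bases with a gene on the opposite strand.

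The HOX partner genes Meis1 and Meis2 were lower as well. Meis2 (chromosome 2, 115863064 to 116065839) fell 10.9-fold per the authors' deposited table (log2 -3.44 ± 0.24, adjusted p 9.47e-43), with implied counts of 43.8 in WD and 477 in ND. Meis1 (chromosome 11, 18879817 to 19018985) fell 4.57-fold per the authors' deposited table (log2 -2.19 ± 0.25, adjusted p 9.17e-17), with implied counts of 23.5 in WD and 108 in ND. Their intervals, -3.92 to -2.97 and -2.69 to -1.70, did not overlap. Meis3 was not in the table.

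All 3 NR2F genes, which encode orphan nuclear receptors, fell. Nr2f2 (chromosome 7, 70351944 to 70366735) was 9.67-fold lower per the authors' deposited table (log2 -3.27 ± 0.30, adjusted p 2.85e-25), and its implied counts were 56.9 in WD and 550 in ND. Nr2f1 (chromosome 13, 78188973 to 78199757) was at -3.40 ± 0.37 per the authors' deposited table (adjusted p 2.32e-18) with a mean normalized count of 32.1, and its interval (-4.13 to -2.67) overlapped that of Nr2f2 (-3.87 to -2.68). Nr2f6, a more distant relative (chromosome 8, 71374123 to 71381960), was at -1.05 ± 0.22 per the authors' deposited table (adjusted p 1.11e-05), and its interval overlapped neither of the others. Non-coding genes on the opposite strand followed Nr2f1 and Nr2f2 per the authors' deposited table: A830082K12Rik was at -3.76 ± 0.48 and B130024G19Rik at -3.58 ± 0.47. They share 123 and 643 exon bases with Nr2f1 and Nr2f2 in that order. Exons of Nr2f6 share 1622 bases with Ocel1 on the opposite strand, so part of its reads may belong to that gene.

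T-box genes moved in opposite directions. Tbx2, a repressor of cell cycle inhibitors in development (chromosome 11, 85832551 to 85841948), fell 9.06-fold per the authors' deposited table (log2 -3.18 ± 0.21, adjusted p 2.80e-50), with implied counts of 44.2 in WD and 401 in ND. Tbx21 (chromosome 11, 97098071 to 97115331) was the single member to rise, by 1.002 ± 0.33 on the log2 scale per the authors' deposited table (adjusted p 0.0115), with implied counts of 49.8 in WD and 24.9 in ND. Its 95% interval ran from 0.35 to 1.65. Tbx20, a regulator of heart development, had a log2 fold change of -1.21 ± 0.55 per the authors' deposited table without passing (adjusted p 0.0845). Among 20 regulators of T, NK, B and mast cells, 5 rose and none fell (median of the 8 listed, 1.22) per the authors' deposited table, led by Runx3 (1.23 ± 0.19), Ikzf3 (1.34 ± 0.29), Tcf7 (1.08 ± 0.31) and Eomes (1.12 ± 0.37), the T-box relative of Tbx21 in natural killer cells. The number of these regulators that rose was 3 at an adjusted p below 0.01, and also 3 with a mean count of at least 50, per the authors' deposited table. The share of lymphocyte RNA in the change of Tbx21 was not tested.

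Both listed KLF genes were near the limits. Klf12, a repressor (chromosome 14, 99870632 to 100284679), had a log2 fold change of -1.38 ± 0.47 per the authors' deposited table (adjusted p 0.0151). Klf15, a metabolic regulator (chromosome 6, 90462576 to 90475238), was at -1.26 ± 0.42 per the authors' deposited table (adjusted p 0.0115), and neither interval lay wholly beyond 2-fold. Klf2 and Klf4, which answer to blood flow in endothelium, were among 15 annotated Klf genes that were not listed. Zbtb46, a zinc finger gene of classical dendritic cells and endothelium (chromosome 2, 181387762 to 181459426), fell 2.18-fold per the authors' deposited table (log2 -1.13 ± 0.14, adjusted p 2.52e-15). Its implied counts were 251 in WD and 549 in ND, and its interval ran from -1.39 to -0.86.

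The members spanned a wide range of level. Mean normalized count per kilobase of annotated exon, computed here from the authors' deposited table, was highest for Maf at 247, followed by Ets1 at 175, Gata4 at 144, Erg at 104 and Hoxa5 at 85.8. Sox18 (83.1) and Sox7 (76.3) stood above Sox17 (28.4) on this scale per kilobase, although Sox17 had the larger fold change. Hoxb8, Tbx20, Hoxb2 and Hoxc6 formed the low end, from 1.51 down to 0.46 per kilobase. These levels have no replicate spread, so the order of near neighbours was not resolved. In all 9 members had a mean normalized count under 10, and 8 of these are HOX genes.

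Promoter sequence was examined because the members moved largely together. RefSeq promoter windows (build GRCm38.p6, 250 bases before to 50 bases after a start site) were matched by symbol for 22 of the 41 members, 1 window a gene. The first 3 windows below, chosen after their values were seen, are those of members with large falls and with many (Erg, Hoxa5) or few (Nr2f2) CpG dinucleotides, written in capitals. In the window of Tal1 the capitals mark the match to the GATA motif. All are given 5′ to 3′ on the strand of the gene.
Erg, chr16:95586544-95586843, minus strand: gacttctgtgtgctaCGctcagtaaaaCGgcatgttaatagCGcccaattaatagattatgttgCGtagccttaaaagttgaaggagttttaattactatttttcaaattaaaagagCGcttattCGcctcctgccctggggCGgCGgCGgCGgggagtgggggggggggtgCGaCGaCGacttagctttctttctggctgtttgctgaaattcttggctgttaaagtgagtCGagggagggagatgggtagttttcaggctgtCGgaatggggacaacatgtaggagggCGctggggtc
Hoxa5, chr6:52204538-52204837, minus strand: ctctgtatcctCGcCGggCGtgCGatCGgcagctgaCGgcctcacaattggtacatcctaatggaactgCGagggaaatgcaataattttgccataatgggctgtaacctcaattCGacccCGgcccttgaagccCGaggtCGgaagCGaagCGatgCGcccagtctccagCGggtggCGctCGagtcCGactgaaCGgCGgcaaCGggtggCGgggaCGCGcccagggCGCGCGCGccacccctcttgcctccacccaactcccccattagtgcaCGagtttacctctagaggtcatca
Nr2f2, chr7:70366697-70366996, minus strand: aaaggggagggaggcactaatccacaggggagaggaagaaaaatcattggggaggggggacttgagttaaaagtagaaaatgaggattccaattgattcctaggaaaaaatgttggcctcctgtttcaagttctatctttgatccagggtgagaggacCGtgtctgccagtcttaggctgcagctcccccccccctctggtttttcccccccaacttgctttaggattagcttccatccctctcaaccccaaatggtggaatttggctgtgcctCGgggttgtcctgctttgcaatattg
Tal1, chr4:115056176-115056475, plus strand: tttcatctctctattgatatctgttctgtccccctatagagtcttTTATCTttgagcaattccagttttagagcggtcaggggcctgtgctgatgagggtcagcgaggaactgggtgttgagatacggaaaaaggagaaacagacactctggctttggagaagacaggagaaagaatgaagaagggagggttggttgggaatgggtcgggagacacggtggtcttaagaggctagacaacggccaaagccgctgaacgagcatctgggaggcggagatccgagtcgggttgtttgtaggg

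These windows hold 16 CpG dinucleotides for Erg, 29 for Hoxa5 and 2 for Nr2f2. The ratio of observed to expected CpG (the CpG number times the window length, over the product of the C and G numbers) was 0.94 for Erg, 1.02 for Hoxa5, 0.11 for Nr2f2 and 0.65 for Tal1. A ratio of at least 0.6 was found in 16 of the 22 member windows (72.7%) and in 36.5% of 27025 RefSeq promoter windows. Among members that fell it was found in 13 of 19 windows (68.4%), against 51% of 976 windows of listed genes that fell. The median GC content was 61.2% in member windows, 60.7% in windows of listed genes that fell and 52.7% in all windows. The windows of Zbtb46 and Klf12 lie far inside the annotated genes, at other start sites. Start sites for Hoxb3os, Meis2, Nr2f1, Hoxa3 and Sox13 lie 1297, 1220, 884, 269 and 165 bases inside the gene, in that order.

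Short core motifs were searched on both strands. The ETS core AGGAAG was present in 6 of 22 member windows (27.3%) and in 35.1% of all windows. The GATA core AGATAA was found in 1 member window, that of Tal1 (4.55%), against 11.4% of all windows. The SOX core AACAAT was in 0 member windows, against 10.9% of all. The FOX core TAAACA was in 2 (9.09%), against 13.4%, and the KLF core CCACCC in 6 (27.3%), against 30.9%. Hoxa5 alone held 4 KLF core matches. In the 976 windows of listed genes that fell, the shares were 35.5% (ETS), 7.27% (GATA), 7.58% (SOX), 9.02% (FOX) and 42.6% (KLF). No window was given for Sox17, Sox18, Sox7 or Gata4. No motif was thus more frequent in the member windows than in all promoters, which says nothing of whether any factor binds there or elsewhere.

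Genes that these factors are known to control in endothelium were lower in the same comparison. Of 28 textbook targets of ETS and SOXF factors, 24 fell, none rose and 4 (Vwf, Notch1, Apln and Aplnr) were not listed per the authors' deposited table. Their median log2 fold change was -2.91 per the authors' deposited table, with the smallest p-values for the tight junction gene Cldn5 (-4.12 ± 0.20), the secreted factor gene Egfl7 (-3.50 ± 0.20), the Notch ligand gene Dll4 (-3.19 ± 0.19) and the Notch receptor gene Notch4 (-2.84 ± 0.18). Many of these targets are themselves endothelial markers. The lists were chosen with earlier results of these data known.

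Of 17 genes tied to GATA4 in mouse liver sinusoids, 16 fell and Il33 was not listed, with a median log2 fold change of -3.02 per the authors' deposited table. Dll4, the inhibitory Fc receptor gene Fcgr2b (-1.38 ± 0.091), the iron-regulating ligand gene Bmp2 (-3.10 ± 0.23) and Dkk3 (-3.31 ± 0.26) had the smallest p-values of these per the authors' deposited table. Of 14 targets of KLF2 and KLF4, 10 fell and 1 rose, with a median of -2.24 per the authors' deposited table; neither factor was listed. The falls by smallest p per the authors' deposited table were Calcrl, a vascular peptide receptor gene (-2.76 ± 0.22), the fenestral diaphragm gene Plvap (-2.24 ± 0.21), Timp3 (-2.30 ± 0.22) and the sphingosine receptor gene S1pr1 (-1.82 ± 0.18). Sema7a rose by 1.17 ± 0.18 on the log2 scale per the authors' deposited table. The lists share genes, so their counts are not separate results. Fcgr2b and Bmp2, among others, are also counted as sinusoidal endothelial markers. Dll4, Plvap and S1pr1, among others, are also counted as ETS and SOXF targets.

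Of 33 other transcription regulators of endothelium, 10 were listed. Among the families' 153 annotated coding genes 24.8% were listed and 22.2% fell, and among all annotated coding genes 8.57% and 5.86%. Of 33 genes, 8 fell, 1 rose, 1 did not pass and 23 were not listed, with a median of -1.83 over listed genes per the authors' deposited table, against -1.55 for all listed genes. All listed genes include 706 with a positive fold change. Elk3, an ETS repressor gene (-2.01 ± 0.11), Epas1, the hypoxia-inducible factor gene of endothelium (-2.27 ± 0.15), Mecom (-3.68 ± 0.33) and the BMP inhibitor gene Smad6 (-1.70 ± 0.16) led by p per the authors' deposited table. The single rise was that of Gfi1, a repressor gene used in blood cells, at 1.07 ± 0.33 per the authors' deposited table. Among 15 regulators of stellate cells and fibroblasts 6 fell and none rose (median -1.83) per the authors' deposited table, led by Twist1 (-3.61 ± 0.35), the retinoic acid receptor gene Rarb (-1.70 ± 0.24), Lhx2 (-2.56 ± 0.65) and Nr1h4 (-1.76 ± 0.49). With a mean count of at least 50, 2 of these 6 remained per the authors' deposited table. Of the 6, Nr1h4 is also in the list of hepatocyte regulators below. Markers of sinusoidal endothelium and these mesenchymal regulators thus fell in the same comparison as the families, and which cells the families' transcripts came from was not tested.

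Regulators of macrophages were listed at a share near that of all annotated coding genes, 8.57%. Of 20 macrophage and Kupffer cell regulators, 2 rose (among them Pparg at 1.45 ± 0.17), none fell and 18, among them Spi1 and Nr1h3, were not listed per the authors' deposited table. Of 14 hepatocyte regulators, Nr5a2 (-2.54 ± 0.29) and Nr1h4 fell and 12 were not listed per the authors' deposited table.

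**Figure D4:**
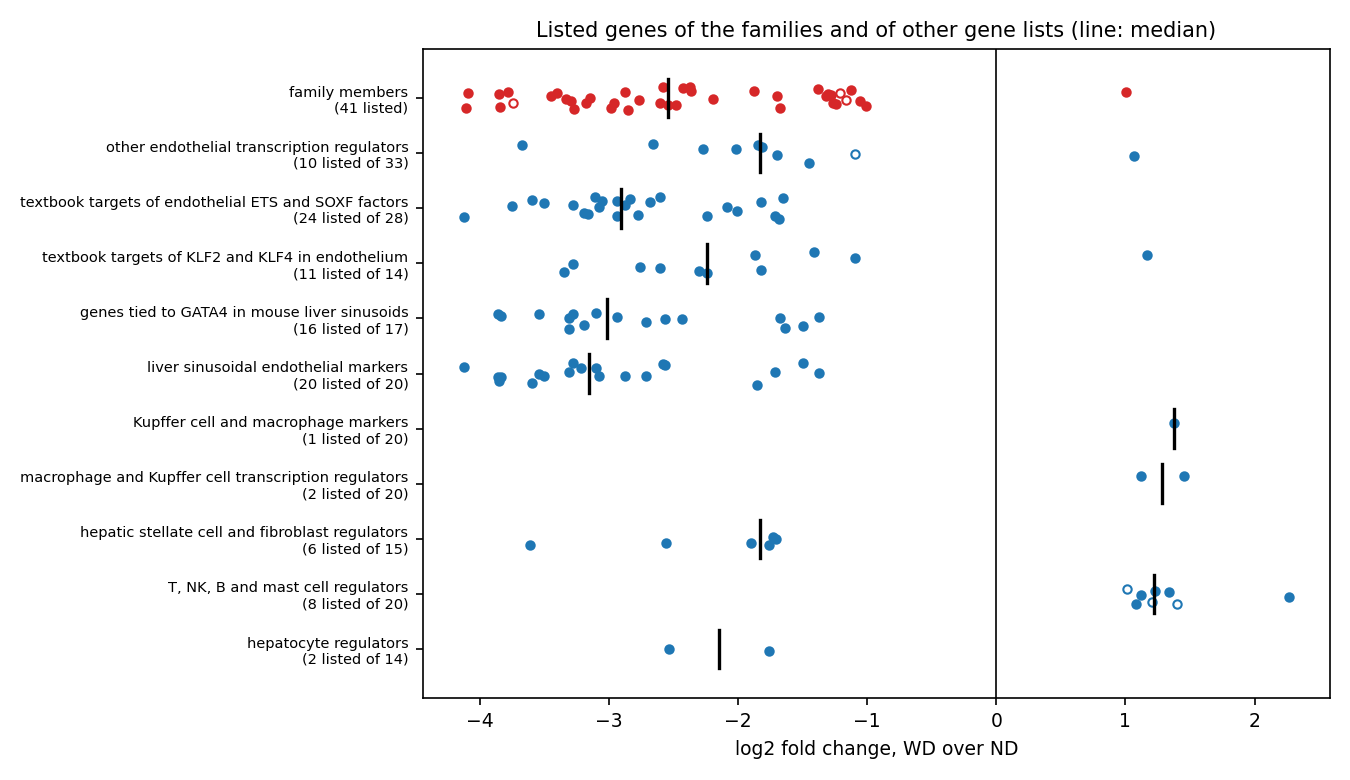
Log2 fold change, WD over ND, of each listed member (red, top row) and of each listed gene in the other lists (blue), with the median as a line; filled points have an adjusted p below 0.05. Listed genes of the endothelial lists wholly or mostly have negative fold changes, whereas the 2 macrophage and 8 lymphoid and mast cell regulators that are listed have positive ones. The empty band between -1 and 1 is the authors' limit on fold change.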

How the data were processed

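RNA was sequenced from liver macrophages in 4 WD and 4 ND libraries. Per the labels' protocols, polyadenylated RNA was enriched, fragmented and copied with random hexamers. Per the submitters' processing notes, the tools included DESeq, edgeR, featureCounts, HISAT2, STAR, STAR-Fusion and StringTie, with build mm10; roles and versions are each not given in the sources used here. The deposited file is the authors' table of 1 comparison, with column names, per the file headers, of a DESeq2 result. The deposited signal is the mean normalized read count over libraries. The deposited log2 fold change (WD over ND) has an SE on the log2 scale, and the deposited score is their ratio. The deposited p-values include a Benjamini-Hochberg adjusted p, empty for 77 genes. All listed p-values were at most 0.04995 and all absolute log2 fold changes at least 1.00011.

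Calls used the authors' adjusted p below 0.05. Computed here with Python 3.11.15 and pandas 2.3.3 were 95% intervals (normal quantile times SE), implied counts per group, and the number of tested genes, as the whole number that made most ranks whole within 0.02 (91.0% of genes); that step was tested on simulated data. All 2386 listed IDs matched GENCODE M21 (mm10), the source of coordinates, gene types and exon lengths. Depth per library is unknown. The rule names every member and, of other lists, the 4 called genes with the smallest p; results for some of these genes are counted but not reported here by name. Members and lists were chosen with earlier results of these data known. Promoter windows were the first given per symbol. The series design names 4 mice per group, but no label ties a library to a mouse; if they were not separate mice, p-values measure only the spread between these samples, which may be technical.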

Additional observations from a re-analysis of the deposited data

How the results depend on the processing

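At an adjusted p below 0.01, 28 members were lower and 0 were higher, and at the authors' unadjusted p below 0.05 there were 40 and 1. Every listed gene meets that last limit, with 1680 of 2386 lower and 706 higher. With a mean normalized count of at least 50, a limit that leaves fewer genes, 17 were lower and 0 higher. With the 95% interval wholly beyond 2-fold, 25 were lower and 0 higher, so the rise of Tbx21 depended on the limit. By the same limit 39.8% of all listed genes, rising genes included, were lower, which is 949 of the 1464 called lower. Protein-coding members gave 34 lower and 1 higher, and all 1882 listed coding genes gave 1287 and 388. Shares of all listed genes at an adjusted p below 0.01 or a mean count of at least 50 were not computed. The members' smaller counts at these 2 limits thus have no background. The median log2 fold change of members was -2.54 as reported and ranged from -2.82 to -2.51 under the 3 alternatives tried, for which no median over all listed genes was computed. For the 10 other lists, 35 of 40 recomputed counts stayed within 1.5 times and 5 were smaller by more (regulators of T, NK, B and mast cells under 2 alternatives; with a mean count of at least 50, also those of stellate cells and fibroblasts at 2 lower, of hepatocytes at 1 lower and other endothelial regulators at 0 higher). No paired analysis was possible because the table holds no value per library. For the same reason leaving out a library, another normalization and another count filter were not run. The authors' limits on p and fold change remove smaller changes, low counts widen the SE of most Hoxb genes, and no alternative listed here could turn a direction, since each keeps the authors' fold changes.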

Other observations

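The authors' own enrichment of genes with a positive fold change includes Tbx21, the single member that rose. In the authors' deposited table, Tbx21 is named in 12 of 373 GO terms and 3 of 78 KEGG terms, of which 4 and 3 had a Benjamini p below 0.05. They include the GO terms regulation of immune response (11 genes, Benjamini p 3.05e-08) and response to virus (13 genes, 7.07e-08) and the KEGG term Th1 and Th2 cell differentiation (11 genes, 1.15e-05), each from the authors' deposited table.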
